A study of Mus musculus with 9 samples.

Results

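Tumour cells that had lost Kmt2d were compared directly with tumour cells that had lost Kmt2c, the paralogous gene, in primary mammary tumours of mice. Cells were chosen as barcodes with between 500 and 7500 detected genes (both bounds excluded), under 15% mitochondrial transcripts and at least 1 transcript of H2BMc, the histone H2B–mCherry reporter carried by the injected cells. These rules left 14973 knockout tumour cells, 6696 from Kmt2d knockout (KO) and 8277 from Kmt2c KO tumours, of 58645 cells kept and 89147 barcodes in the series. A further 1734 cells of wild-type (WT) tumours served as a reference for direction. All tumours came from 168FARN, a mouse mammary tumour cell line, injected into the mammary fat pads of Balb/c mice, which the study's methods give as female. The labels give no age, and the methods give it only at purchase of the mice. WT tumours grew from the line with neither gene targeted, whereas the KO lines had been transfected with 3 pooled guides against 1 gene and with Cas9, and all lines carried the reporter. Each KO line was 1 sorted pool of edited cells, so that the 3 tumours of a genotype replicate the mouse and not the knockout. Whole tumours were dissociated and profiled by droplet-based single-cell RNA sequencing of transcript 5′ ends, with 3 libraries per genotype, and the numbers 1 to 3 only name libraries.

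Kmt2c and Kmt2d encode large histone methyltransferases, which work in COMPASS-like complexes with shared subunits and mark enhancers. Both complexes contain the demethylase Kdm6a, which removes a repressive mark set by Polycomb repressive complex 2. Both paralogues are often mutated in cancer, and the comparison asks in which genes loss of the one differs from loss of the other.

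The guides, read from the study's forward oligos, are shown because they define both groups. The reverse oligo listed for Kmt2d guide 2 has the letters of the forward oligo of Kmt2c guide 1, so the listing of that guide is uncertain. Each is written 5′ to 3′ with the adjacent PAM, the bases that Cas9 requires beside its target, in capitals.

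Kmt2c guide 1: tctttgcgaggccggccccgAGG
Kmt2c guide 2: ggtgactaggatgtcgtcggAGG
Kmt2c guide 3: ggggaagcgccatctttgcgAGG
Kmt2d guide 1: acggtaaatccaggtcggagTGG
Kmt2d guide 2: gaaatcctcatccgagaacaTGG
Kmt2d guide 3: gagtggtcacccttcccccgGGG

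Each of the 6 guides of 20 bases had 1 exact match in the mouse genome build NCBIM37. The Kmt2c guides matched chr5:25004241-25004260 (plus strand), chr5:25004359-25004378 (minus strand) and chr5:25004229-25004248 (plus strand), all in exon 1 of the gene, named Mll3 in that annotation. These bases are annotated as coding in some transcripts and as UTR in others, and guide 2 overlaps an annotated start codon. The Kmt2d guides matched chr15:98701571-98701590, chr15:98701464-98701483 and chr15:98701588-98701607, all on the plus strand, in exon 1 of the gene named Mll2 there, within its annotated UTR.

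No difference in transcript count between the knockouts was detectable for either target gene. Transcript levels are given as CPM, the summed count of a library scaled to a common depth and composition, in the order of libraries 1, 2 and 3. For Kmt2c, Kmt2d KO tumours gave 51.8, 49.9 and 48.3 CPM and Kmt2c KO tumours gave 44.4, 44.0 and 55.6 CPM. For Kmt2d, the values were 25.9, 31.1 and 23.9 CPM in Kmt2d KO and 26.5, 22.8 and 29.99 CPM in Kmt2c KO. WT libraries gave 47.7, 49.7 and 49.1 CPM for Kmt2c and 21.2, 19.2 and 15.3 CPM for Kmt2d, the latter below all 6 knockout libraries. Against WT, Kmt2d was 0.54 higher in Kmt2d KO on the log2 scale (adjusted p = 0.104) and 0.51 higher in Kmt2c KO (adjusted p = 0.0401). The knockouts overlapped for both genes, with log2 fold changes (Kmt2d KO minus Kmt2c KO, as throughout) of 0.06 ± 0.10 (SE) for Kmt2c (adjusted p = 0.795) and 0.03 ± 0.14 for Kmt2d (adjusted p = 0.947). Small insertions or deletions need not lower a transcript count, so these values check no label. Without Kmt2d KO library 2, described next, the differences were 0.06 for Kmt2c and -0.09 for Kmt2d, and neither was called.

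Before the results, 1 library has to be set apart. When each knockout library was left out in turn and the 500 genes with the smallest p between the knockouts were chosen without it, the left-out library lay on its own group's side of the midpoint for 81.4% (Kmt2d KO 1) and 95.6% (Kmt2d KO 3) of genes, and for 54%, 90.2% and 79.6% in Kmt2c KO 1, 2 and 3. Kmt2d KO library 2 did so for only 7.4%. On a scale where 0 is the mean of its own group and 1 that of the other knockout (log2 CPM), its median place was 0.87, and the 10th and 90th percentiles over genes were 0.59 and 1.17. Kmt2c KO library 1 was the next farthest from its group, at a median place of 0.47. When the other libraries were left out, Kmt2d KO library 2 stayed in its group and helped to choose the genes and set the scale. Their values, those of Kmt2c KO library 1 included, therefore rest in part on it. Chi-square over degrees of freedom, a measure of how unlike 2 libraries are over genes, was 11.4 for Kmt2d KO libraries 1 and 3. It was 59.2 and 77.3 when library 2 was set against libraries 1 and 3, and 21.9, 38.3 and 26.6 for the pairs of Kmt2c KO libraries. The measure also grows with depth, which differed between libraries. It was at least 4.18 for all pairs of the same genotype, so none was counted as a duplicate. The library labelled Kmt2d KO 2 thus lay with the other knockout on most of these genes, and whether it carries the right label could not be checked here. Every value that includes it in Kmt2d KO rests on that label. Labels were kept, and the counts, lists and differences below are followed by their values without this library. Because it was set apart for lying near Kmt2c KO, leaving it out favours more calls and larger differences. Calls without it therefore describe the remaining libraries and are no independent evidence.

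**Figure D1:**
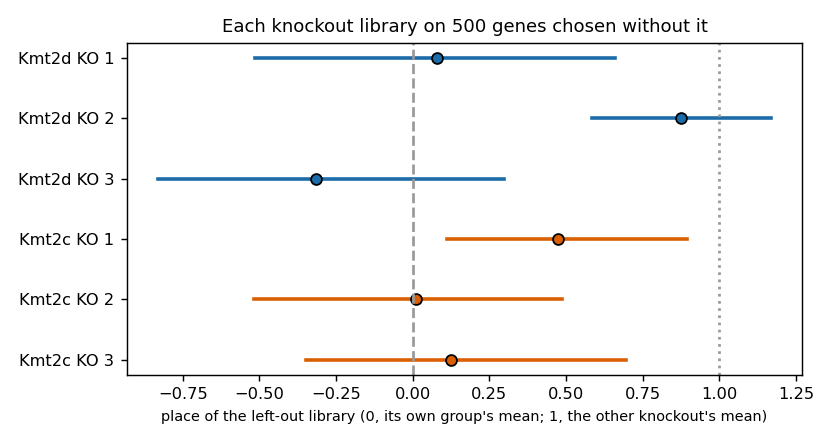
Place of each left-out knockout library on 500 genes chosen without it (horizontal axis, no unit: 0 is the mean of its own group, 1 the mean of the other knockout, on log2 CPM). Points are medians over genes and bars run from the 10th to the 90th percentile. Kmt2d KO library 2 sits at 0.87, close to the Kmt2c KO mean, and the other 5 libraries lie between -0.31 and 0.47. Library 2 stayed in Kmt2d KO when each of these was left out.

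The chosen cells were checked against Krt8, an epithelial keratin, which was detected in 78.5% to 85.0% of Kmt2d KO cells and in 74.0% to 75.9% of Kmt2c KO cells per library. These shares come from cells of unequal depth (two-sided exact permutation p = 0.1, the smallest that 3 against 3 libraries allow, adjusted p = 0.6 over 6 measures per library). In cells thinned to 2000 UMIs they were 49.3%, 34.9% and 47.7% in Kmt2d KO and 41.1%, 34.6% and 31.2% in Kmt2c KO, which overlapped. Kept cells with Ptprc or Pecam1, markers of blood and endothelial cells, and no H2BMc held Krt8 in 14.9%, at a median of 2489 UMIs. A transcript of at least 1 of 11 markers of other cell types was held by 29.1%, 47.2% and 36.8% of the chosen cells in Kmt2d KO and by 34.3%, 42.3% and 49.8% in Kmt2c KO. Summed transcripts (unique molecular identifiers, UMIs) ran from 24460249 to 47951145 per knockout library, and the median cell held 11222 to 14789 UMIs in Kmt2d KO and 8661 to 11824 in Kmt2c KO. In Kmt2d KO library 2, 63.7% of cells held a transcript of at least 1 of 6 proliferation genes, such as Mki67 and Top2a, against 37.8% to 47.7% in the other 5 knockout libraries. Markers of macrophages and neutrophils summed to 30.5, 98.8 and 21.9 CPM in Kmt2d KO libraries 1 to 3 and to 62.6, 100.2 and 127.5 CPM in Kmt2c KO, led by Cd74, while 11 lymphocyte markers summed to at most 1.71 CPM in any library. The macrophage and neutrophil sums moved with the interferon genes described later, and their part in those results was not tested. Stromal fibroblast markers, led by Gsn, summed to 1335, 961 and 1329 CPM in Kmt2d KO and to 1102, 1272 and 1248 CPM in Kmt2c KO. Endothelial and mural markers, led by Cd34, summed to 375, 267 and 388 CPM against 264, 289 and 287 CPM. Their part in the results was not tested either.

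In the direct comparison, edgeR's quasi-likelihood test called 11 of 14089 genes (0.0781%) at a Benjamini-Hochberg adjusted p below 0.05, of which 7 were higher and 4 lower in Kmt2d KO. A much larger number, 2506 genes, had an unadjusted p below 0.05. In all of the 11 genes the Kmt2c KO mean lay farther from the WT mean than the Kmt2d KO mean did. Without Kmt2d KO library 2, the same test called 1315 genes higher (9.26% of 14208) and 1482 lower (10.4%), the 11 among them. Without Kmt2c KO library 1 the count was 71. By edgeR it was 0, with 1289 to 2510 genes at an unadjusted p below 0.05, without any other single library, in cells with no transcript of 11 markers of other cell types, in cells with none of the 6 proliferation genes and in a fit of the knockout libraries alone. The log2 fold changes of the 11 genes were then 0.940 to 1.09 times (cells without other markers), 0.630 to 1.15 times (cells without proliferation genes) and 0.997 to 1.003 times (knockout libraries alone) those with all cells and libraries. DESeq2, run without the low-count filter of the edgeR fit, called 565 genes with all libraries, the 11 among them. Without that filter edgeR called 521, so the counts of 565 and 11 come from unlike sets of genes. In the reported edgeR fit all 11 adjusted p lay between 0.0468 and 0.0498, close to the threshold.

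Of the 7 genes higher in Kmt2d KO, Cavin2, a coat protein of caveolae, the small pits of the plasma membrane, was measured at 14.5, 13.9 and 13.4 CPM in Kmt2d KO, at 5.28, 5.70 and 3.79 CPM in Kmt2c KO and at 35.5, 21.98 and 28.4 CPM in WT. All 3 Kmt2d KO libraries lay above all Kmt2c KO and below all WT libraries, and the difference between the knockouts was 1.499 ± 0.18 (log2 fold change ± SE, n = 3 each, adjusted p = 0.0468). Ptprm, a receptor phosphatase of cell contacts, was measured at 2.13, 2.11 and 3.02 CPM in Kmt2d KO and at 0.860, 0.652 and 0.706 CPM in Kmt2c KO. Its WT values of 2.98, 3.30 and 3.24 CPM overlapped those of Kmt2d KO and not those of Kmt2c KO (1.71 ± 0.22, adjusted p = 0.0468).

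Mylk, the kinase that activates myosin light chain in contraction, stood at 20.4, 19.2 and 24.1 CPM in Kmt2d KO against 11.2, 11.5 and 12.5 CPM in Kmt2c KO (0.86 ± 0.12, adjusted p = 0.0468). WT libraries, at 24.0, 23.7 and 19.6 CPM, again overlapped Kmt2d KO. Arhgap42, a regulator of small GTPases, stood at 35.2, 30.4 and 34.7 against 20.4, 22.6 and 20.8 CPM (0.65 ± 0.09, adjusted p = 0.0468). Tenm4, a transmembrane adhesion protein, stood at 65.5, 60.1 and 70.2 against 42.9, 32.0 and 38.6 CPM (0.79 ± 0.12, adjusted p = 0.0498). In all 3 genes each Kmt2d KO library exceeded each Kmt2c KO library. Of the other 2 genes higher in Kmt2d KO, Pex5l, a relative of the peroxisomal import receptor, differed by 2.11 ± 0.30 from low levels (2.74, 1.44 and 2.91 against 0.445, 0.618 and 0.578 CPM), and the predicted gene Gm2115 by 1.11 ± 0.14 (53.3, 39.2 and 55.3 against 26.2, 22.5 and 19.8 CPM). For both, library 2 was the lowest of the Kmt2d KO libraries, yet above all Kmt2c KO libraries. Without library 2 the log2 fold changes of the 7 genes lay between 0.72 (Arhgap42) and 2.37 (Pex5l).

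Of the 4 genes lower in Kmt2d KO, Ifitm3, an interferon-induced membrane protein that hinders virus entry, was measured at 1972.5, 2643 and 1751 CPM in Kmt2d KO, at 3792, 4542 and 4034 CPM in Kmt2c KO and at 1234, 1289 and 1315 CPM in WT. Kmt2d KO thus lay between WT and Kmt2c KO in every library, with a difference of -0.96 ± 0.14 between the knockouts (adjusted p = 0.0468). Lgals9, which encodes galectin-9, a sugar-binding protein, stood at 58.8, 66.4 and 59.5 against 88.5, 106 and 93.3 CPM (-0.64 ± 0.09). Ddit3, the transcription factor CHOP of the endoplasmic reticulum stress response, stood at 22.3, 25.5 and 18.4 against 36.9, 56.5 and 48.9 CPM (-1.11 ± 0.16). Notum, an enzyme that inactivates Wnt ligands, stood at 11.0, 14.1 and 10.9 against 20.4, 24.9 and 27.9 CPM (-1.02 ± 0.15). Each of these 3 had an adjusted p of 0.0468 and no overlap, and in each the Kmt2d KO library nearest to Kmt2c KO was library 2. Without it, log2 fold changes were -1.15 for Ifitm3, -0.70 for Lgals9, -1.23 for Ddit3 and -1.16 for Notum.

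**Figure D2:**
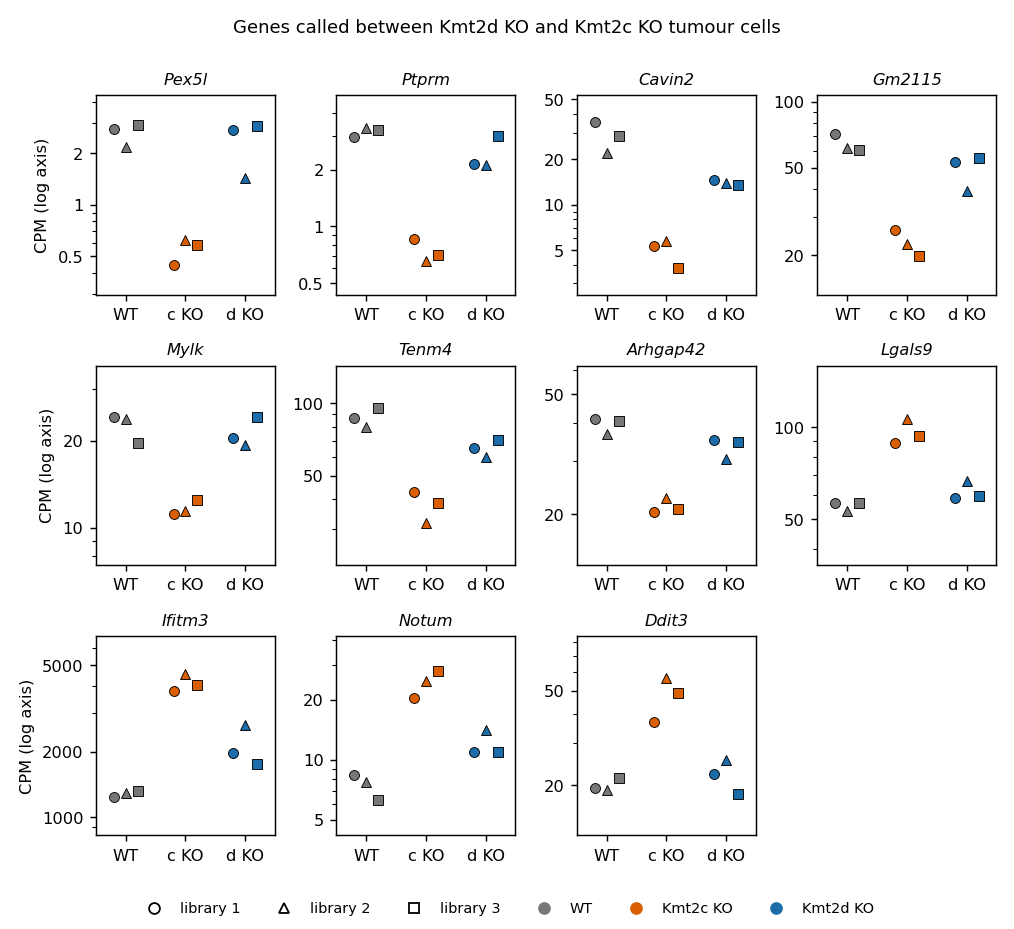
Levels of the 11 called genes in each library (vertical axes, CPM on a log scale; WT, Kmt2c KO as c KO and Kmt2d KO as d KO; circle, triangle and square are libraries 1, 2 and 3). In every panel the 3 Kmt2d KO libraries lie on 1 side of the 3 Kmt2c KO libraries, as for Cavin2 with 13.4 to 14.5 against 3.79 to 5.70 CPM.

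Side by side with WT, which both contrasts share, the same fit called 2640 genes (18.7%) in Kmt2c KO and 320 (2.27%) in Kmt2d KO. Without Kmt2d KO library 2 these counts were 4140 (29.1%) and 823 (5.79%). For the 11 genes, log2 fold changes against WT were larger in size in Kmt2c KO throughout. Cavin2 was -2.53 in Kmt2c KO and -1.04 in Kmt2d KO, Ifitm3 was 1.69 and 0.73, and both genes were called in both contrasts. Mylk was -0.94 and -0.08, Ddit3 was 1.25 and 0.14 and Lgals9 was 0.79 and 0.15, and these 3 were called against WT only in Kmt2c KO. The differences between the 2 contrasts are the direct comparison above and no further evidence.

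To see whether promoters of these genes share an interferon-type sequence, a motif of GAAA, any 2 bases and GAAA again, of the kind bound by interferon regulatory factors, was searched on both strands, overlapping matches included, from 250 bases before to 50 after the start site. RefSeq promoters (build GRCm38.p6) were found for 10509 of the 14089 genes tested, and 410 of them (3.90%) held the motif. Among called genes with a promoter, it was found in 2 of 3 lower in Kmt2d KO (Ifitm3 and Lgals9) and in 2 of 6 higher (Tenm4 and Mylk). The windows below, on the strand of the gene, show matches in capitals, as GAAA with GAAA or, for the other strand, TTTC with TTTC, for 2 called genes of each direction and for Bst2, an interferon-induced membrane protein described later.

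Ifitm3: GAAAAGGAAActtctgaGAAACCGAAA
Bst2: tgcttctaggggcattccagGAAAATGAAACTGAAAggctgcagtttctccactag
Lgals9: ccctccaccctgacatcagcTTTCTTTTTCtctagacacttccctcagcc
Tenm4: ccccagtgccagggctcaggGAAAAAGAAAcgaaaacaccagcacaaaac
Mylk: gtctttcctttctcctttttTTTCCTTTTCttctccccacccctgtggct

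The windows lie at chr7:141010716-141010742 (Ifitm3, minus strand), chr8:71537567-71537622 (Bst2, minus strand), chr11:78984950-78984999 (Lgals9, minus strand), chr7:96171143-96171192 (Tenm4, plus strand) and chr16:34784723-34784772 (Mylk, plus strand). Ifitm3, Bst2 and Lgals9 each held 2 matches, those of Bst2 overlapping. Both matches of Ifitm3 lay after its start site, and so did the second of Lgals9, at chr11:78984900-78984909. The match of Tenm4 was its only one. The printed matches of Lgals9 and Mylk were both made of T and C alone, and that of Mylk stood in a longer run of these bases. Without Kmt2d KO library 2, the motif was found in 111 of 1125 promoters of genes called lower (9.87%) and in 32 of 989 of genes called higher (3.24%). It was found in 13 of 24 promoters of a type I interferon response list. A match is a description of letters and shows no binding.

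Genes whose 3 Kmt2d KO libraries all lay on 1 side of the 3 Kmt2c KO libraries numbered 1184 higher (8.4%) and 1327 lower (9.42%) in Kmt2d KO. With library totals as the only scaling, the split was 1499 higher and 1046 lower. In most of them the 3 Kmt2c KO libraries, and not those of Kmt2d KO, lay beyond both other groups. Kmt2c KO lay above all Kmt2d KO and WT libraries in 915 genes (6.49%) and below them in 789 (5.6%), whereas Kmt2d KO lay above both in 135 (0.958%) and below both in 163 (1.16%). Of these, 19 genes had Kmt2d KO below and Kmt2c KO above all WT libraries, and 6 the opposite order. The share that such orders would reach by chance was not set beside these counts, so the small Kmt2d KO counts are descriptions. Without Kmt2d KO library 2, when 2 libraries were set against 3, no overlap was found for 3619 genes higher (25.5%) and 3536 lower (24.9%). Kmt2c KO then lay above both other groups in 2007 (14.1%) and below both in 1968 (13.9%), and Kmt2d KO above both in 1158 (8.15%) and below both in 986 (6.94%). Apart from the called genes, none of the genes named in the rest of the text passed the threshold of edgeR between the knockouts with all libraries in the fit. DESeq2 did call some of them, Bst2, Btg2, Bnip3 and Cav1 among them, and "called" refers to edgeR unless another tool is named.

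Among genes in which Kmt2d KO lay above both other groups, Thsd4, a secreted protein of the elastic microfibril matrix, was measured at 49.5, 12.0 and 53.6 CPM in Kmt2d KO, at 5.34, 6.83 and 5.71 CPM in Kmt2c KO and at 5.65, 7.23 and 7.10 CPM in WT. Kmt2d KO library 2 was above the 6 other-genotype libraries but far below its own group (2.69 ± 0.44, adjusted p = 0.0609; called at 3.12 without it). Ebf1, a transcription factor of B cells and stromal progenitors, stood at 43.1, 47.2 and 54.7 CPM against 25.2, 27.7 and 36.0 in Kmt2c KO and 37.6, 29.1 and 22.6 in WT (0.71 ± 0.18, adjusted p = 0.0977). Tsc22d3, which encodes the glucocorticoid-induced protein GILZ, stood at 55.2, 47.3 and 44.2 CPM against 30.6, 38.4 and 25.9 in Kmt2c KO and 33.8, 40.7 and 36.7 in WT (0.63 ± 0.14, adjusted p = 0.0845). For Ebf1 and Tsc22d3, library 2 lay with Kmt2d KO libraries 1 and 3, and both were called without it, at 0.73 and 0.65.

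Lower in Kmt2d KO than in both other groups was Hspa1b, an inducible heat shock protein with a near-identical copy and therefore uncertain, at 65.9, 70.7 and 62.6 CPM against 92.5, 168 and 141 in Kmt2c KO and 109, 86.0 and 168 in WT (-1.01 ± 0.24, adjusted p = 0.0942). Btg2, an antiproliferative gene, stood at 8.80, 11.0 and 5.62 CPM against 12.3, 26.1 and 20.7 in Kmt2c KO and 15.9, 16.7 and 18.9 in WT (-1.23 ± 0.28, adjusted p = 0.0859). Dkk2, a secreted Wnt modulator, stood at 3.93, 16.8 and 12.1 CPM against 23.3, 20.1 and 25.1 in Kmt2c KO and 23.3, 39.1 and 33.7 in WT (-1.04 ± 0.37, adjusted p = 0.188). Its Kmt2d KO libraries lay below all others, with the lowest at 3.93 CPM. Without library 2 all 3 were called, at -1.06 for Hspa1b, -1.48 for Btg2 and -1.43 for Dkk2.

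Genes in which Kmt2c KO lay beyond both other groups included enzymes, a channel and clock genes. Nos2, the inducible nitric oxide synthase, was measured at 3.15, 6.97 and 1.44 CPM in Kmt2d KO, at 12.3, 30.6 and 31.3 CPM in Kmt2c KO and at 0.992, 3.37 and 1.57 CPM in WT (-2.71 ± 0.53, adjusted p = 0.0775). P2rx7, an ATP-gated channel, stood at 29.7, 37.7 and 20.5 against 61.3, 60.7 and 92.4 CPM (-1.29 ± 0.21, adjusted p = 0.0621). Its WT libraries, at 14.9 to 16.3 CPM, lay below both knockouts. On the other side, Per1, a core circadian clock gene, stood at 37.7, 53.8 and 26.3 against 13.7, 17.3 and 16.1 CPM (1.32 ± 0.24, adjusted p = 0.0724). Dbp, a clock-controlled transcription factor, stood at 80.6, 80.2 and 74.8 against 54.7, 45.7 and 44.3 CPM (0.70 ± 0.13, adjusted p = 0.0724), and Wee1, a kinase that holds back mitosis, at 48.7, 62.2 and 43.5 against 32.3, 31.1 and 27.3 CPM (0.77 ± 0.13, adjusted p = 0.0724). Library 2 had the highest Per1 and Wee1 of all 6 knockout libraries. All 5 genes were called without it, at -3.54 for Nos2, -1.52 for P2rx7, 1.02 for Per1, 0.69 for Dbp and 0.60 for Wee1.

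Gene lists were described by counts and medians. Over all genes tested the median log2 fold change was 0.01, 8.4% were higher and 9.42% lower with no overlap, and 9.26% were called higher and 10.4% lower without library 2, which is the background for the list counts that follow. The median place of library 2 over all genes tested was 0.92. For genes with little difference between the knockouts a place is a ratio of small numbers, so 0.92 is no baseline for the list places below. Hypoxia and glycolysis genes lay mostly on 1 side. Of 31 tested, 21 (67.7%) were lower in Kmt2d KO with no overlap and 0 higher, and the median was -0.62. With all libraries edgeR called 0 of them, with 26 at an unadjusted p below 0.05, and 24 were called lower without library 2 (median -0.70). Slc2a1, the main glucose transporter of tumours, stood at 78.0, 93.7 and 53.8 CPM in Kmt2d KO against 151, 295 and 193 in Kmt2c KO (-1.50 ± 0.28, adjusted p = 0.0724), and WT libraries, at 55.0, 73.4 and 95.3 CPM, overlapped Kmt2d KO. Bnip3, a mitophagy receptor, stood at 144, 158 and 67.7 against 227, 402 and 270.4 CPM (-1.28 ± 0.30, adjusted p = 0.0898). Higd1a, a mitochondrial hypoxia-response protein, stood at 132, 167 and 97.2 against 220.3, 349 and 284 CPM (-1.11 ± 0.20, adjusted p = 0.0724). Gpi1, a glycolytic enzyme, stood at 375, 394 and 319 against 496, 571 and 493 CPM (-0.52 ± 0.10, adjusted p = 0.0775). In each gene library 2 was the highest Kmt2d KO library and still below all Kmt2c KO libraries, with a median place of 0.43 over the list. Without it all 4 were called, at -1.70, -1.51, -1.31 and -0.59 in this order.

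Immediate early genes and metallothioneins lay in part on the same side. Of 23 immediate early genes tested, 11 (47.8%) were lower in Kmt2d KO with no overlap and 0 higher, with a median of -0.71. Without library 2, 14 were called lower (median -0.99). Fosl2, an AP-1 subunit, stood at 31.9, 38.1 and 27.2 against 45.2, 62.7 and 67.6 CPM (-0.85 ± 0.16, adjusted p = 0.0724), and Nr4a1, an early-response nuclear receptor, at 5.93, 8.37 and 4.37 against 10.1, 14.5 and 14.1 CPM (-1.06 ± 0.22, adjusted p = 0.078). Both were called without library 2, at -0.99 and -1.35. Immediate early genes can also respond to tissue dissociation, whose part was not tested. Of 20 metallothionein and antioxidant genes tested, 5 (25%) were lower and 2 (10%) higher with no overlap (median -0.13), and 7 were called lower and 3 higher without library 2 (median -0.11). The metal-binding metallothioneins Mt1 (665, 905 and 326 against 1334, 2428 and 2090.5 CPM) and Mt2 (162, 272 and 97.2 against 326, 494 and 530 CPM) differed by -1.63 ± 0.32 (adjusted p = 0.0775) and -1.35 ± 0.31 (adjusted p = 0.0859), and were called at -1.98 and -1.80 without library 2. Of 25 NF-kB target genes 3 (12%, near the 9.42% of all genes) were lower with no overlap (median -0.68), and 9 were called lower without library 2 (median -0.76). Of 13 Wnt, TGF-beta and Notch target genes 3 (23.1%) were lower with no overlap (median -0.39), and Notum was the member called. Without library 2, 7 were called lower and 1 higher (median -0.58).

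On the opposite side lay genes of cholesterol synthesis and of caveolae. Of 24 cholesterol synthesis genes tested, 6 (25%) were higher in Kmt2d KO with no overlap and 0 lower, and the median was 0.37. Without library 2, 7 were called higher (median 0.41). Cyp51, a sterol demethylase, stood at 41.8, 36.6 and 47.2 CPM in Kmt2d KO and at 35.6, 24.97 and 18.4 CPM in Kmt2c KO, and Kmt2c KO libraries spread nearly up to Kmt2d KO (0.67 ± 0.20, adjusted p = 0.145). Tm7sf2, a sterol reductase, stood at 8.06, 7.10 and 9.32 against 6.17, 4.84 and 3.88 CPM (0.72 ± 0.17, adjusted p = 0.0942). Without library 2 both were called, at 0.76 for Cyp51 and 0.81 for Tm7sf2. The median place of library 2 on this list was 0.14. Of 15 caveolae and prenylation genes tested, 6 (40%) were higher with no overlap and 0 lower (median 0.12), and 4 were called higher without library 2 (median 0.16). Cav1, the main caveolin, stood at 191, 182 and 207 against 139, 166 and 149 CPM (0.35 ± 0.09, adjusted p = 0.106; called at 0.40 without library 2), and with all libraries Cavin2 was the only member called by edgeR. DESeq2 also called Cav1, at 0.36 (adjusted p = 0.0129).

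Genes of the histone-modifying complexes themselves differed little. Of 18 COMPASS and partner genes tested, 3 (16.7%) were higher in Kmt2d KO with no overlap, and the median was 0.06 with and without library 2. These were the subunit or partner genes Men1 (25.4, 27.7 and 29.4 against 22.3, 23.5 and 22.1 CPM), Ash2l (58.6, 50.1 and 58.4 against 48.1, 47.6 and 47.5 CPM) and Kmt2a (89.8, 95.3 and 88.2 against 81.7, 71.2 and 81.8 CPM). Their log2 fold changes were 0.28 ± 0.09, 0.22 ± 0.08 and 0.22 ± 0.08, with adjusted p of 0.168, 0.194 and 0.212. Without library 2, 2 genes of the list were called higher, among them Ash2l at 0.29, while Men1 (0.28) and Kmt2a (0.19) were not called. Kdm6a stood at 37.9, 34.0 and 34.6 against 31.3, 28.4 and 36.0 CPM, with overlap (0.15 ± 0.10, adjusted p = 0.435), and was not called without library 2 (0.18). Of 12 genes of Polycomb repressive complex 2, the opposing repressor, and its partners, 1 (8.33%) was higher with no overlap and the median was 0.01, and 1 was called higher without library 2 (median -0.03).

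With all libraries, the interferon-response lists had the lowest medians, and these depended on library 2. Without it the median of the Ly6 family lay below that of the type I list. Of 33 type I interferon response genes tested, 19 (57.6%) were lower in Kmt2d KO with no overlap, and the median was -1.21. Without library 2 all 33 were called lower, with a median of -1.98. Of 26 interferon gamma response genes, only 2 (7.69%) were lower with no overlap (median -1.29), and all 26 were called lower without library 2 (median -2.77). Library 2 had a median place of 0.81 on the first list and 0.97 on the second. Of 7 Ly6 family genes, surface proteins whose near copies make their counts uncertain, 6 were lower with no overlap and 6 were called lower without library 2 (median -1.02, and -2.36 without library 2).

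Bst2 was measured at 355, 771 and 342 CPM in Kmt2d KO, at 1160, 1468 and 1207 CPM in Kmt2c KO and at 200.2, 161 and 211 CPM in WT (-1.39 ± 0.27, adjusted p = 0.0775; called at -1.88 without library 2). Library 2 lay between the other Kmt2d KO libraries and Kmt2c KO. Irf7, a transcription factor that amplifies interferon production, stood at 60.7, 174 and 56.8 against 244, 356 and 382.5 CPM (-1.75 ± 0.39, adjusted p = 0.0839; called at -2.48 without library 2), with the same order of libraries. Iigp1, an interferon-induced GTPase, stood at 13.8, 185 and 19.0 CPM in Kmt2d KO against 136, 181 and 249 CPM in Kmt2c KO (-1.38 ± 0.77, adjusted p = 0.379; called at -3.51 without library 2). Here library 2 lay inside the range of Kmt2c KO, so that the groups overlapped.

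Among 22 genes of MHC class I presentation, 15 (68.2%) were lower in Kmt2d KO with no overlap, 1 was higher, and the median was -0.61. Without library 2, 19 were called lower and 1 higher (median -0.97), and the median place of library 2 on the list was 0.83, close to the 0.81 of the type I list. The 2 members described next had lower places than that median. H2-K1, which encodes a classical class I heavy chain, stood at 4282, 4183 and 4127 CPM in Kmt2d KO, at 5556, 6280 and 5127 CPM in Kmt2c KO and at 2700.2, 2705 and 2883 CPM in WT (-0.43 ± 0.09, adjusted p = 0.078). H2-D1, a second heavy chain, stood at 4466, 4711 and 4296 against 6354, 6990.1 and 6081 CPM (-0.53 ± 0.09, adjusted p = 0.0609). Both genes are highly similar to each other and to further family members, so that their counts are uncertain. On H2-K1 library 2 lay between the other Kmt2d KO libraries, at a place of -0.02, and on H2-D1 at 0.19. Without it both were called, at -0.43 and -0.56.

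Interferon transcripts were also counted per cell. After each cell was thinned to 2000 UMIs, which left out 13 to 283 cells per knockout library, the median cell held 3, 9 and 3 UMIs of the type I list in Kmt2d KO libraries 1 to 3, and 12, 13 and 15 in Kmt2c KO libraries 1 to 3. WT medians were 3, 2 and 2. The 10th percentile was 2 in Kmt2d KO library 2 against 0 and 1 in libraries 1 and 3, and 2 to 3 in Kmt2c KO. The 90th percentile was 28 in library 2, 11 and 12 in the other Kmt2d KO libraries and 31 to 41 in Kmt2c KO. All 3 percentiles of library 2 were above those of the other Kmt2d KO libraries, and its median was below that of each Kmt2c KO library. The 75th percentile was 6 UMIs in Kmt2d KO libraries 1 and 3, and the 25th percentile was 6, 6 and 7 in Kmt2c KO libraries 1 to 3.

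**Figure D3:**
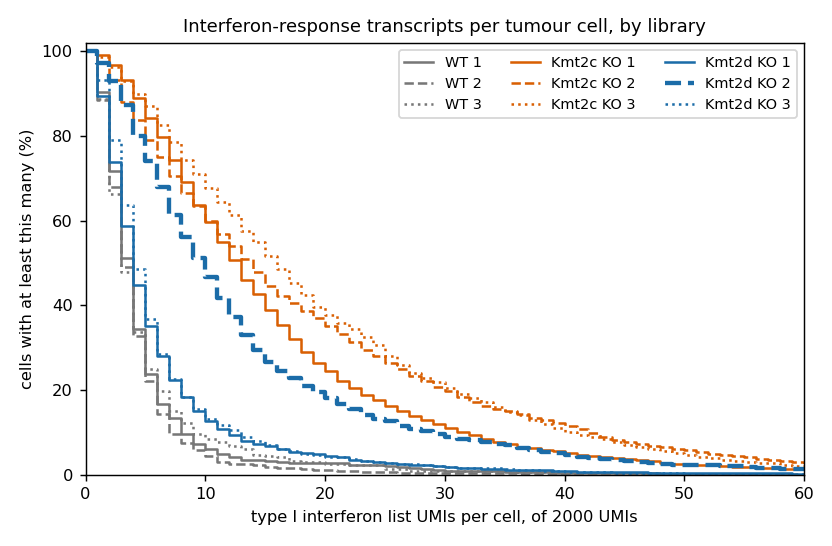
Share of tumour cells (vertical axis, %) that held at least a given number of UMIs of the type I interferon list (horizontal axis, UMIs of 2000 per thinned cell), 1 curve per library, coloured by genotype, with Kmt2d KO library 2 as the thick dashed line. The curve of library 2 (median 9 UMIs) runs just left of the Kmt2c KO curves (medians 12 to 15) and away from those of Kmt2d KO libraries 1 and 3 (median 3 each).

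Of the genes that differed between Kmt2c KO and Kmt2d KO libraries 1 and 3, few placed library 2 nearer to its own group than to Kmt2c KO. Among 1302 genes called higher without it and testable with it, library 2 lay nearer to its own group in 207 (15.9%), and among 1470 called lower in 303 (20.6%). With library 2 included, the knockouts still had no overlap in 461 (35.4%) and 605 (41.2%) of these genes. Over all genes 8.4% were higher and 9.42% lower with no overlap, but these genes were chosen for a difference in the other libraries. Library 2 thus lay between the groups on many of them. Gm364, a predicted gene, was measured at 44.7, 0.160 and 50.0 CPM in Kmt2d KO, at 0.178, 0.756 and 0.578 CPM in Kmt2c KO and at 47.8, 52.0 and 47.9 CPM in WT. Gm364 differed by 5.99 ± 1.30 between the knockouts (adjusted p = 0.0788) and was called at 6.58 without library 2. It was detected in 39.0% and 46.0% of cells of Kmt2d KO libraries 1 and 3, but in 4 of 2028 cells of library 2 (0.197%, 95% exact Clopper-Pearson interval 0.0538 to 0.504%, counting error only) and in 0.146% to 0.490% of cells of the Kmt2c KO libraries. Cells with Ptprc or Pecam1 and without tumour markers, which should lack a tumour-cell transcript, held it in 0.775%, at a median of 2186 UMIs, so that the share in library 2 was at background.

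Col3a1, a fibrillar collagen, stood at 64.2, 11.7 and 64.1 CPM against 11.5, 12.2 and 8.48 in Kmt2c KO and 145, 134 and 101 in WT. Serpinh1, the chaperone of collagen folding, stood at 260.04, 79.3 and 259 CPM against 66.0, 69.9 and 49.6 in Kmt2c KO and 211, 203 and 208 in WT. For both, Kmt2d KO libraries 1 and 3 were far above Kmt2c KO and library 2 stood beside it. With all libraries the differences were 2.12 ± 0.49 for Col3a1 (adjusted p = 0.0904) and 1.69 ± 0.35 for Serpinh1 (adjusted p = 0.078). Without library 2 both were called, at 2.58 for Col3a1 and 2.07 for Serpinh1. Library 2 was also the lowest Kmt2d KO library in summed stromal fibroblast markers (961 CPM), whose part was not tested. Cd274, the gene of the immune checkpoint ligand PD-L1, stood at 5.52, 27.6 and 5.23 CPM in Kmt2d KO, at 23.8, 34.3 and 47.6 CPM in Kmt2c KO and at 4.27, 3.37 and 4.07 CPM in WT. Kmt2d KO libraries 1 and 3 lay close to WT, and library 2 within the range of Kmt2c KO (-1.47 ± 0.54, adjusted p = 0.194; called at -2.71 without library 2).

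**Figure D4:**
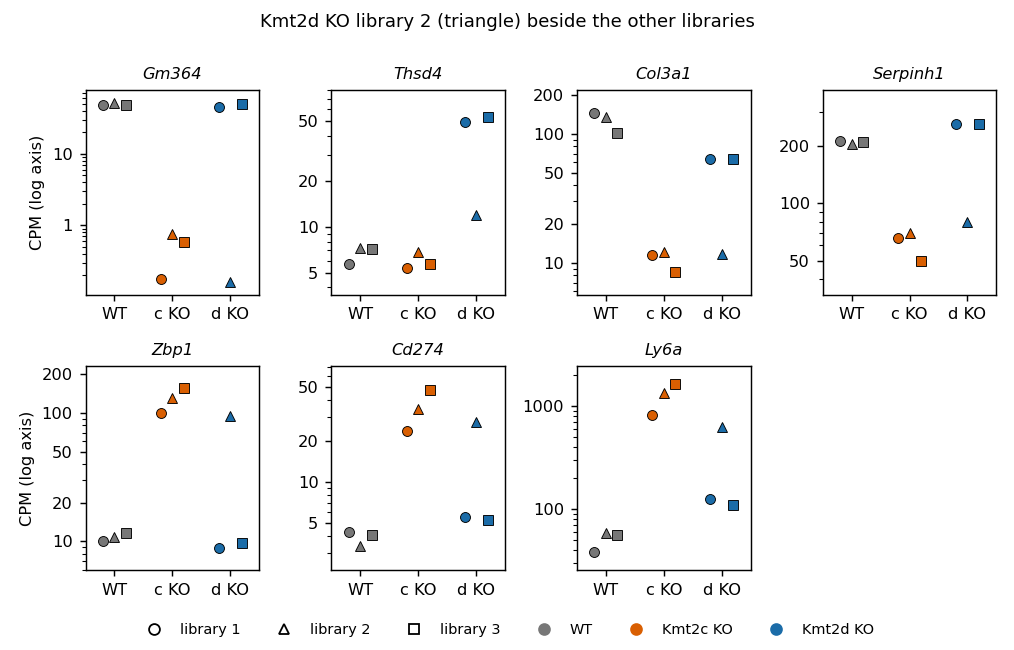
Levels of 7 genes in each library (vertical axes, CPM on a log scale; WT, Kmt2c KO as c KO and Kmt2d KO as d KO; circle, triangle and square are libraries 1, 2 and 3). The triangle of Kmt2d KO lies near the Kmt2c KO points, as for Gm364 at 0.160 CPM against 44.7 and 50.0 CPM in the other Kmt2d KO libraries.

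Genes named for a difference with all libraries had to hold library 2 on the side of its group, so their places are no evidence about that library. Mmp3, a matrix metalloproteinase, stood at 133, 121 and 127 CPM in Kmt2d KO and at 168, 338 and 248 CPM in Kmt2c KO, above WT libraries of 23.7, 38.7 and 31.3 CPM (-0.99 ± 0.23, adjusted p = 0.0859), and library 2 had a place of -0.12. It was called at -0.95 without library 2. Among further secreted enzymes, Mmp10 stood at 8.22, 11.0 and 6.59 against 16.4, 14.1 and 22.8 CPM (-1.05 ± 0.24, adjusted p = 0.0831; called at -1.28 without library 2). Of 12 metalloproteinase and inhibitor genes tested, 4 (33.3%) were lower and 1 higher in Kmt2d KO with no overlap (median -0.26), and 5 were called lower and 0 higher without library 2 (median -0.67). Of 20 collagens 2 (10%) were higher and 0 lower with no overlap (median 0.17), and without library 2, 6 of 19 tested were called higher and 2 lower (median 0.21). Of 24 proteoglycan and glycoprotein genes 1 was higher and 3 (12.5%) lower with no overlap (median 0.06), whereas without library 2, 8 were called higher and 4 lower (median 0.21). Eln, elastin, stood at 195, 155 and 208 against 229, 247 and 268 CPM (-0.41 ± 0.11, adjusted p = 0.119; called at -0.30 without library 2). Library 2 was the lowest of the Kmt2d KO libraries for Eln, beyond its group on the side away from Kmt2c KO.

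Cell-cycle genes had list medians a little above that of all genes. Of 53 genes of the G2/M phase 6 (11.3%) were higher with no overlap and 0 lower (median 0.22), and of 41 of the S phase 4 (9.76%) were higher and 0 lower (median 0.22). Both shares are close to the 8.4% of all genes. Library 2, the library with the highest share of cells with a proliferation transcript, had a median place of -0.87 on the G2/M list, and without it the G2/M median was 0.09 with 2 genes called higher, and the S phase median 0.19 with 1. Krt8 itself was measured at 466, 296 and 427 CPM against 343, 312 and 227 CPM with overlap (0.43 ± 0.18, adjusted p = 0.235), and library 2 was the only Kmt2d KO library below a Kmt2c KO library. Without it Krt8 was called at 0.60. H2BMc was used to choose the cells, so its level (117, 108 and 89.1 CPM in Kmt2d KO and 154, 148 and 144 CPM in Kmt2c KO) is a description. Of 19 mesenchymal identity genes 2 (10.5%) were lower in Kmt2d KO with no overlap and 0 higher (median -0.07), and without library 2, 4 were called lower and 5 higher (median -0.09). Of 12 complement genes 3 (25%) were lower and 0 higher with no overlap (median -0.61), and without library 2, 7 were called lower and 2 higher (median -0.82).

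**Figure D5:**
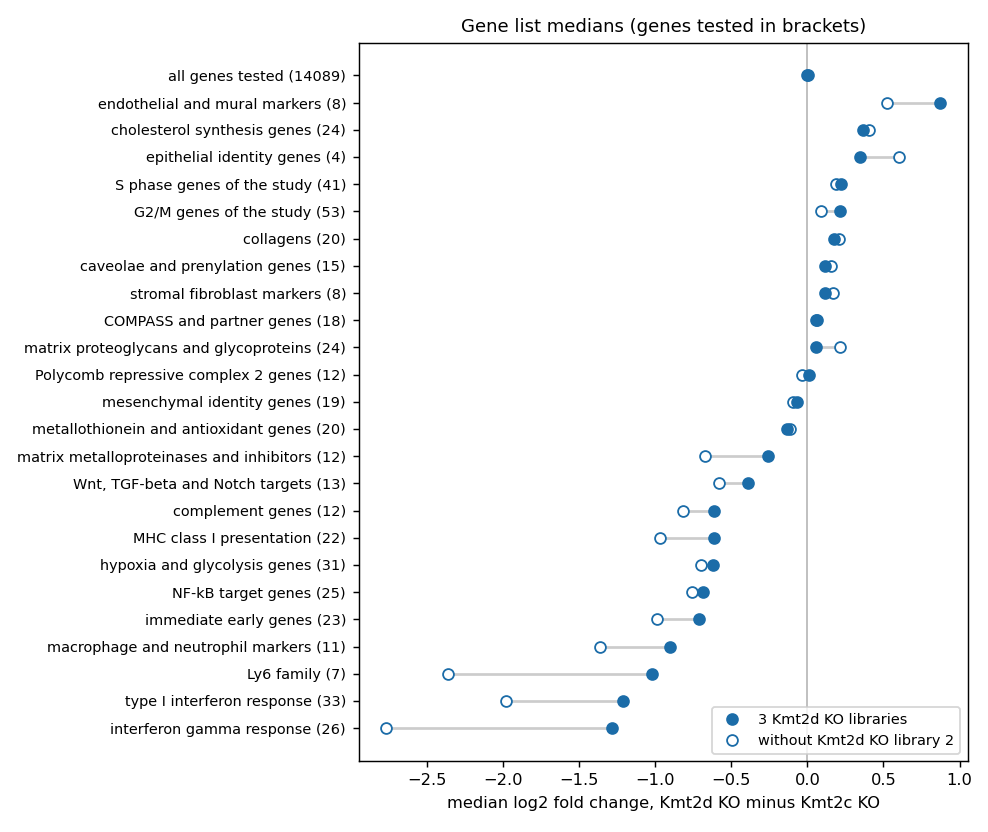
Median log2 fold change (horizontal axis, Kmt2d KO minus Kmt2c KO) of each gene list, with the number of genes tested in brackets, for all libraries (filled) and without Kmt2d KO library 2 (open). The interferon gamma and Ly6 lists move most, from -1.29 to -2.77 and from -1.02 to -2.36, while hypoxia and glycolysis genes (-0.62 and -0.70) and cholesterol synthesis genes (0.37 and 0.41) stay near the same value.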

How the data were processed

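The authors processed 5′ single-cell libraries with Cell Ranger 7.0.1 (build mm10, per the labels) and deposited whole-number UMI counts per gene and barcode. Whether libraries were scaled to a common depth on aggregation is not stated. The library was read from the barcode suffix and the group from the genotype letter of the authors' aggregation table. Replicate numbers of the labels could not be tied to libraries.

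Counts were summed per library over the chosen cells, because cells are not replicates, and tested with edgeR 4.0.16 (glmQLFit and glmQLFTest, filterByExpr, TMM) on all 9 libraries with genotype as the only factor, after a test on simulated data. DESeq2 1.42.0, run without filterByExpr, was an alternative. SEs were derived from the fold change and the F statistic. Since gene symbols can share reads with near copies (Ly6, H2 and Ifi27l2a families), those genes are uncertain. Doublets were not called, and leaving out the 5% of cells with the most UMIs was an alternative. Barcodes shared by 2 libraries numbered 0 to 13 per pair.

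The members, gene lists and rules were chosen with earlier results of these data known. Named genes are those called, those with the largest differences under fixed filters (mean of at least 10 CPM), those standing beyond both other groups, the target and study genes, and up to 3 members of each list by smallest p. Genes for which shares of cells are given were picked from these after their values were seen. Depth limits genes of low counts, which the filter left out of the reported fit. 1 gene with a large difference is not reported here.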

Additional observations from a re-analysis of the deposited data

How the results depend on the processing

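The count of 11 called genes was within 1.5 times of itself with RLE factors, library totals or Krt8-positive cells (9, 10 and 14). DESeq2, which was run without the low-count filter, called 565, and edgeR without that filter called 521. Cells with 2 or more H2BMc UMIs gave 121, and a mitochondrial limit of 10% left 4. The edgeR count was 0, at 1707 to 2510 unadjusted p below 0.05, with at least 10 CPM in 3 libraries, in cells with 3000 or more UMIs, in cells without markers of other types, in cells with no proliferation transcript, without the top 5% of cells by UMIs, in libraries thinned to the lowest total and in the knockout libraries alone. Leaving out 1 library at a time gave 0 to 2797 calls, with 2797 without Kmt2d KO library 2, 71 without Kmt2c KO library 1 and 0 without each of the other 7. Without Kmt2d KO library 2, DESeq2 called 2542 genes and the knockout libraries alone 2182. The count of 2511 genes with no overlap was 2364 to 2625 under other cell sets and library totals, and larger without Kmt2d KO library 2, when 2 libraries face 3. Over 133 named genes and 3008 single-gene results, 166 lost and 289 gained a call, and 0 reversed while called, whereas 15 results of 6 genes, none of them called, had the other sign. The cause of these shifts was not tested. No paired analysis was possible because the libraries carry no replicate numbers that tie them to the labels.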
